A study of Mus musculus with 7 samples.

Results

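The transcripts of the mitochondrial genome were taken as all rows of the count table whose gene symbol starts with mt-, and 37 of the 55367 genes in the table met this rule. They comprised 13 mRNA genes, 2 rRNA genes and 22 tRNA genes, and each class was described separately. All 37 genes lay on the mitochondrial chromosome (chrM) of the mouse genome GRCm38. CD8+ T cells were sorted from spleens of mice of the strain Foxp3 YFP/cre and cultured for 48 hours with 100 μg/mL of small extracellular vesicles (sEVs), after which polyadenylated 3′ ends were sequenced. The cells of 4 libraries received HCME-sEVs, the vesicles of healthy spleens, and the cells of 3 libraries received LME-sEVs, the vesicles of spleens from leukemic Eμ-TCL1 mice, in which a transgene drives TCL1 in B cells. Libraries were assigned from their titles and treatment labels, whereas a figure legend of the study gives the group sizes the other way round, and the sign of every difference rests on the labels. None of the 7 libraries came from cells without vesicles, so each difference is between both kinds of vesicles. The labels give 100 μg/mL for every culture, whereas the methods describe amounts as found in each kind of spleen, and the methods place CD8+ T cells on wells coated with anti-CD3 with IL2 and CD28. The labels do not say whether libraries came from separate animals or cultures, so the p-values measure the spread between these libraries, which may be technical.

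Mitochondria keep a small circular genome of their own that encodes core subunits of the respiratory chain and of ATP synthase, together with the rRNAs and tRNAs needed to translate them. Each strand is transcribed as a long precursor, and most mRNAs and rRNAs are released when the tRNAs that lie between them are cut out. Most mitochondrial mRNAs then gain short poly(A) tails, whereas the mRNA of ND6, the protein gene of the opposite strand, is known to lack one, and mature tRNAs end in CCA. T cells raise their mitochondrial content and respiration when they are activated.

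Library totals lay between 3689831 and 5030522 counts, where a count is a molecule collapsed by its unique molecular identifier (UMI). A floor of 3 counts per library corresponded to between 0.58 and 0.804 CPM, which stands throughout for counts scaled to library size with factors from the trimmed mean of M values (TMM). Replicates of a group differed beyond counting noise, as the chi-square of each pair was 2.12 to 6.13 times its degrees of freedom. Cd8a and Cd3e, which mark the sorted cells, were read at 340 to 433 CPM and at 107 to 152 CPM, and the summed level of the 6 CD8+ T-cell markers was 1738 to 1913 CPM with HCME-sEVs and 1980 to 2267 CPM with LME-sEVs. In RNA from many cells, fewer cells of a kind and less RNA per cell cannot be told apart.

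The 5 transcripts with a lower level after LME-sEVs at a false discovery rate (FDR) under 0.05 were 1 mRNA and 4 tRNAs, and their sequences are shown because the results turn on them. The letters come from the GENCODE vM21 transcripts on GRCm38, read 5′ to 3′ on the coding strand. For the tRNAs the capitals mark the anticodon. For mt-Nd6 the last 60 bases are given, the end at which 3′ reads would lie, and the capitals mark the stop codon. None of the 5 holds a run of more than 3 A.
mt-Tq, glutamine, chrM:3772-3842, minus strand: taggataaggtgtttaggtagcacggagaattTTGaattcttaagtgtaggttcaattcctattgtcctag
mt-Tc, cysteine, chrM:5192-5257, minus strand: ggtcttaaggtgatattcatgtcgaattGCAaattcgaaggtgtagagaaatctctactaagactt
mt-Tv, valine, chrM:1025-1093, plus strand: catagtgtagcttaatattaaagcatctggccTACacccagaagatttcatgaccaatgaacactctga
mt-Tt, threonine, chrM:15289-15355, plus strand: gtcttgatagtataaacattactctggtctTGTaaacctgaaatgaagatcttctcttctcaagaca
mt-Nd6, chrM:13552-13611, minus strand: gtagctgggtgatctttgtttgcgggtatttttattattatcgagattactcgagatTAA

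Counts along the mitochondrial genome formed blocks. Of the 37 genes, 11 were listed at 0 in all 7 libraries, and 9 of these 11 lay in a single stretch. The stretch, chrM:6390-11042, has a copy in the nuclear genome on chr1:24611535-24616188, where 7 annotated unprocessed pseudogenes follow the mitochondrial gene order with an identity of 99.71% to 100%. By position, 11 mitochondrial genes lay wholly in this stretch, namely the mRNA genes mt-Co2, mt-Atp8, mt-Atp6, mt-Co3, mt-Nd3 and mt-Nd4l and the tRNA genes mt-Ts1, mt-Td, mt-Tk, mt-Tg and mt-Tr. The highest count of any of them was 20, for mt-Nd3, and the pseudogenes of the copy held at most 2 counts. Only annotated nuclear transcripts were searched. For mt-Co2, mt-Atp6, mt-Co3, mt-Nd3 and mt-Nd4l a counterpart was found over nearly the whole gene, whereas for mt-Atp8 only its 43 bases shared with mt-Atp6 were matched and for the 5 tRNAs none, so their place in the copy rests on the gene order alone. Of the 24 genes outside the stretch, mt-Tn and mt-Th were the 2 at 0. The sources used here do not give how reads that map to more than 1 place were treated, so a 0 in this stretch does not give the level of the RNA.

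mt-Nd3 and its nuclear counterpart Gm28438 show how close the copies are. In their first 33 bases they differ by the substitution T3C, counted from 1 at the start of mt-Nd3 with the mitochondrial base first, and the capitals mark it.
mt-Nd3, chrM:9459-9491, plus strand: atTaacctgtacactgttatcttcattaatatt
Gm28438, chr1:24613087-24613119, minus strand: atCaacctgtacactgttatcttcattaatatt

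mt-Co1 and mt-Nd4 reach into the stretch in part. All of the first 876 of the 1378 bases of mt-Nd4 match Gm28439, while its last bases, where 3′ reads would lie, are outside. Of the runs of 50 bases in mt-Nd4, 62.2% also occur in an annotated nuclear transcript, against 51.1% for mt-Co1, 100% for mt-Co2, 99.9% for mt-Co3, 99.5% for mt-Atp6, 98.8% for mt-Nd4l and 98.0% for mt-Nd3, and 0% for mt-Atp8 and the 5 tRNAs of the stretch. mt-Co1 has its 3′ end inside the stretch, where its last 483 bases are 99.79% identical to Gm29216, and yet it held 9872 to 15979 counts per library. The end of mt-Nd4 is shown because it lies beyond the copy and the gene was counted in every library.
mt-Nd4, chrM:11485-11544, plus strand: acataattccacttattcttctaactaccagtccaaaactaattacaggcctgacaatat

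**Figure D1:**
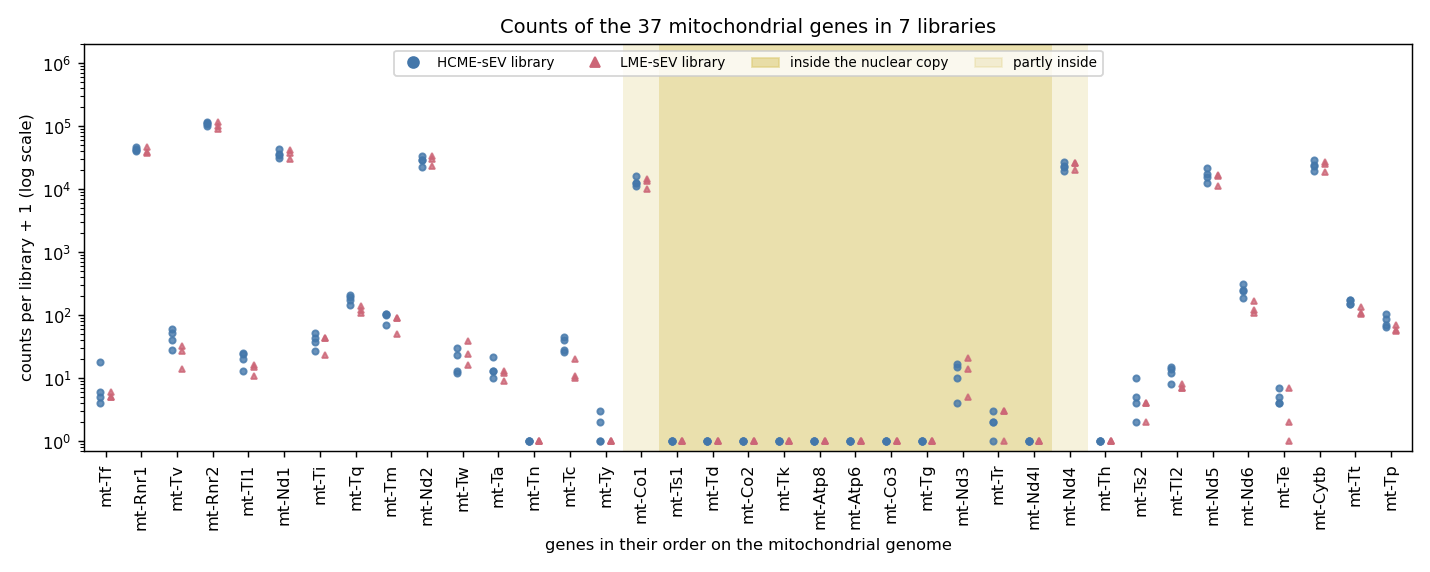
Counts per library plus 1, on a log axis, of the 37 mitochondrial genes in their order on the mitochondrial genome, with circles for the 4 HCME-sEV libraries and triangles for the 3 LME-sEV libraries. Dark shading marks the 11 genes that by position lie in the stretch with the nuclear copy and light shading the 2 genes partly inside; 9 of the 11 sit at 0 counts in all libraries, and the highest count of the 11 is 20.

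A few transcripts outside the copy or partly inside it held nearly all counts. The 2 rRNAs and 6 mRNAs had means of at least 1000 CPM, and the next was mt-Nd6 at 47.4 CPM. Of the 6 mRNAs, mt-Co1 and mt-Nd4 lie partly in the copy on chr1, mt-Co1 with its 3′ end. Their counts may therefore not give their full level. Other annotated nuclear copies, less alike, matched all of mt-Co1 (Gm13340, 97.61% identity) and of mt-Nd6 (Gm11408, 93.64%). Parts of mt-Nd2 (Gm13339, 96.67%) and mt-Nd5 (Gm4076, 95.18%) and nearly all of mt-Cytb (Gm11410, 92.91%) were also matched. In this order these copies held at most 14, 0, 5, 11 and 9 counts per library. Levels of different genes are given per kilobase, but with 3′ counting a molecule gives a count whatever its length, so this division raises short genes. Mean levels per kilobase were 15970 CPM for mt-Rnr2, 10516 for mt-Rnr1, 8984 for mt-Nd1, 6514 for mt-Nd2, 4914 for mt-Cytb, 4003 for mt-Nd4, 2054 for mt-Nd5 and 1972 for mt-Co1, against 91.3 for mt-Nd6. Among the tRNAs, mt-Tq had the highest level per kilobase at 530.5 CPM and mt-Tt the next at 507 CPM. Without division by length the order of mt-Nd6 and mt-Tq turned, at 47.4 and 37.7 CPM. The level of mt-Nd6 per kilobase was the lowest of the 7 well-counted mRNAs.

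The share of each library in mitochondrial transcripts was first compared by class, as a description with no test. Of the 13 mRNA genes summed here, 5 were listed at 0 in all libraries and mt-Nd3 held at most 20 counts. The mRNA share is therefore that of the counted genes, mainly the 6 abundant mRNAs. mRNAs took 3.93%, 3.5%, 3.09% and 3.22% of the counts of HCME-sEV libraries 1 to 4 and 3.06%, 3.33% and 3.17% of LME-sEV libraries 1 to 3, and the groups overlapped. rRNAs took 3.72%, 3.91%, 3.93% and 3.25% with HCME-sEVs and 3.47%, 3.14% and 3.26% with LME-sEVs, and also overlapped. The log2 ratio of the means, LME-sEVs over HCME-sEVs, was -0.11 for mRNAs and -0.17 for rRNAs, and that of mRNAs was -0.037 without HCME-sEV library 1.

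tRNAs were a small part of every library and stood apart from the other classes. They took 0.0183%, 0.0205%, 0.0183% and 0.0128% with HCME-sEVs and 0.0111%, 0.0125% and 0.0113% with LME-sEVs. All LME-sEV libraries were below all HCME-sEV libraries, with a log2 ratio of the means of -0.59, but HCME-sEV library 4 and LME-sEV library 2 differed by less than their 95% Wilson intervals, which reached from 0.0118% to 0.0140% and from 0.0115% to 0.0136% and cover counting error only. All mitochondrial genes together, 11 of them listed at 0, took 6.49% to 7.67% with HCME-sEVs and 6.44% to 6.54% with LME-sEVs. The HCME-sEV libraries spread more widely, with an SD of 0.518 percentage points (n = 4) against 0.0535 (n = 3).

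**Figure D2:**
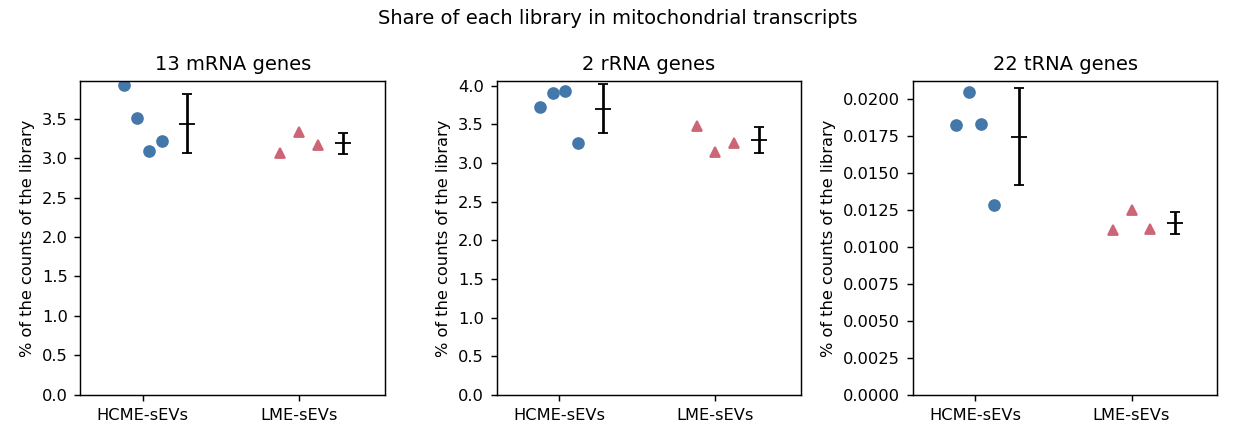
Percent of the counts of each library in the mRNA, rRNA and tRNA genes of the mitochondrial genome, with circles for the 4 HCME-sEV libraries, triangles for the 3 LME-sEV libraries, and the mean ± SD beside them. The groups overlap for mRNAs and rRNAs, and the 3 LME-sEV libraries lie below all HCME-sEV libraries for tRNAs. Of the 13 mRNA genes 5, and of the 22 tRNA genes 6, are at 0 in all libraries.

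For the test of single genes, the quasi-likelihood test of edgeR was run, with p-values adjusted by Benjamini-Hochberg over the 12623 genes whose counts averaged 5 or more per library. Of the 37 mitochondrial genes, 22 were tested, namely 8 mRNAs, both rRNAs and 12 tRNAs. Of these, 5 of 22 had an FDR under 0.05, and all 5 were lower with LME-sEVs. Over all tested genes 8.96% had an FDR under 0.05, with 5.21% lower (658 genes) and 3.75% higher (473 genes). With library size as the only scaling, 465 were lower and 612 higher, and 5 mitochondrial genes were still lower and none higher. With a log2 fold change under -1 as well, 3 of the 22 passed (mt-Nd6, mt-Tc and mt-Tv), against 0.658% of all tested genes. The LME-sEV libraries lay below every HCME-sEV library for 5 of the 22 and above for none, against 10.8% and 9.49% of all tested genes. The median log2 fold change of the 22 was -0.40, with 20 of 22 below 0. Over all tested genes the median was 0.0096, with 48.53% below 0. The 15 genes not tested hold too few counts, so these values are no account of all 37.

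**Figure D3:**
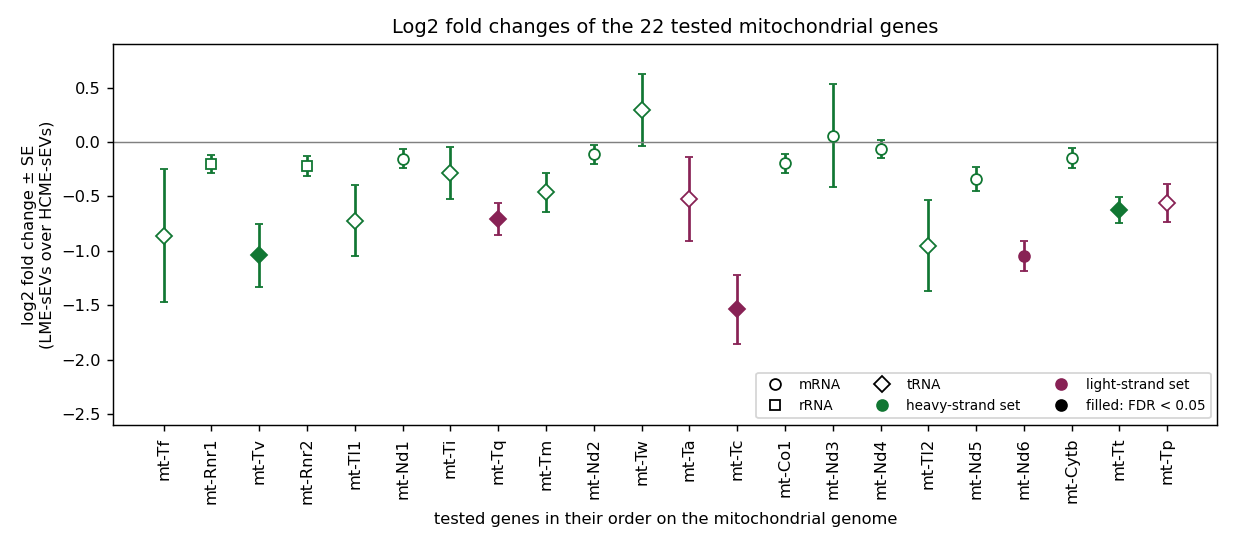
Log2 fold change, LME-sEVs over HCME-sEVs, ± SE of the 22 tested mitochondrial genes in their order on the mitochondrial genome, with circles for mRNAs, squares for rRNAs and diamonds for tRNAs, green for heavy-strand and purple for light-strand genes, and filled marks for an FDR under 0.05. The 8 genes with means of at least 1000 CPM lie between -0.34 and -0.06 with open marks, and mt-Tc is the lowest at -1.54.

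The rRNAs, which form the mitochondrial ribosome with imported proteins, did not pass the test. mt-Rnr2 (the 16S rRNA) was at 27291, 28878, 28570 and 22844 CPM with HCME-sEVs and at 24323, 22382 and 22568 CPM with LME-sEVs. mt-Rnr1 (the 12S rRNA) was at 11226, 10913, 10761 and 9614 CPM and at 10052, 8623 and 9108 CPM. For each of them an HCME-sEV library lay within the range of the LME-sEV group. The log2 fold changes were -0.22 with an SE of 0.088 and an FDR of 0.132 for mt-Rnr2, and -0.20 with an SE of 0.082 and an FDR of 0.142 for mt-Rnr1. The ratio of mt-Rnr2 to mt-Rnr1 was 2.53 ± 0.144 (SD, n = 4) with HCME-sEVs and 2.5 ± 0.0896 (SD, n = 3) with LME-sEVs.

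Of the 7 mRNAs of complex I, the first enzyme of the respiratory chain, mt-Nd4l was listed at 0 and 6 were tested. mt-Nd1 was at 10429, 9168, 8282 and 8067 CPM with HCME-sEVs and at 7908, 8285 and 8041 CPM with LME-sEVs, with a log2 fold change of -0.15 (FDR 0.313). mt-Nd2 was at 8057, 7242, 6062 and 6598 CPM and at 6259, 6723 and 6390 CPM, with a log2 fold change of -0.11 (FDR 0.486). These groups overlapped, and the highest level of both genes was in HCME-sEV library 1. mt-Nd4 was at 6341, 5695, 5054 and 5386 CPM and at 5355, 5745 and 5041 CPM, with a log2 fold change of -0.06 (FDR 0.721). mt-Nd3, which lies in the nuclear copy, was at 0.720 to 4.04 CPM and 1.07 to 3.87 CPM, from 3 to 20 counts, with a log2 fold change of 0.06 and an SE of 0.474 (FDR 0.963), so that little could be seen at this depth.

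mt-Nd5 had the lowest log2 fold change of the abundant mRNAs. It was at 5109, 4334, 3354 and 3668 CPM with HCME-sEVs and at 2992, 3545 and 3218 CPM with LME-sEVs. LME-sEV library 2 lay above HCME-sEV library 3, and the log2 fold change of -0.34 with an SE of 0.110 missed the threshold (FDR 0.0584). As a share of the 6 abundant mRNAs of the same library, itself included, its groups did not overlap. They came close, at 10.86% in HCME-sEV library 3 against 10.8% in LME-sEV library 2. mt-Nd5 made up 12.6%, 12.2%, 10.9% and 11.4% of the counts of the 6 abundant mRNAs with HCME-sEVs and 9.90%, 10.8% and 10.5% with LME-sEVs. The ratio of mt-Nd5 to mt-Nd4 was 0.806, 0.761, 0.664 and 0.681 against 0.559, 0.617 and 0.638. The shares of the other 5 overlapped between the groups, and these ratios are descriptions with no test.

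For complex III, mt-Cytb, which encodes cytochrome b, was at 6877, 5978, 5128 and 5478 CPM with HCME-sEVs and at 5079, 5551 and 5257 CPM with LME-sEVs, with a log2 fold change of -0.15 (FDR 0.353). For complex IV, mt-Co1, the catalytic subunit of cytochrome c oxidase, was at 3837, 3180, 2989 and 2882 CPM and at 2647, 2970 and 2817 CPM, with a log2 fold change of -0.20 (FDR 0.198). Both groups of values overlapped, and in both genes HCME-sEV library 1 was the highest. mt-Co2 and mt-Co3 of complex IV and mt-Atp6 and mt-Atp8 of ATP synthase were listed at 0 in all libraries, so ATP synthase could not be read from the mitochondrial genome.

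mt-Nd6, the complex I subunit encoded in the opposite direction to the other mRNAs, was lower with LME-sEVs. It was at 75.6, 61.4, 48.9 and 57.3 CPM with HCME-sEVs and at 32.2, 23.7 and 32.5 CPM with LME-sEVs. All 3 LME-sEV libraries were below all 4 HCME-sEV libraries. The means were 60.8 ± 11.2 (SD, n = 4) and 29.5 ± 4.96 CPM (SD, n = 3), a 2.07-fold lower fitted level, with a log2 fold change of -1.05, an SE of 0.141 and an FDR of 1.64e-04. mt-Nd6 and mt-Nd5 share 14 bases at their 3′ ends on opposite strands, and since the sources used here do not say whether counting used the strand, reads of both genes cannot be told apart there. Per 1000 counts of mt-Nd5, mt-Nd6 had 14.8, 14.2, 14.6 and 15.6 counts with HCME-sEVs and 10.8, 6.70 and 10.1 with LME-sEVs. The HCME-sEV libraries thus lay close together in this ratio and above the LME-sEV group.

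Genes read from the light-strand set (mt-Nd6 and 8 tRNAs, minus strand of the reference) and the heavy-strand set were set side by side. Of the 5 tested light-strand genes, 3 were lower, with a median log2 fold change of -0.71 and a range from -1.54 to -0.53. Of the 17 tested heavy-strand genes 2 were lower, with a median of -0.22. Among tRNAs alone the medians were -0.63 for the 4 of the light strand and -0.67 for the 8 of the heavy strand. The summed level of light-strand tRNAs was 86.2, 90.4, 78.2 and 57.1 CPM with HCME-sEVs and 49.1, 50.8 and 41.0 CPM with LME-sEVs, and the groups did not overlap. Heavy-strand tRNAs summed to 102.8, 118.2, 105.5 and 71.0 CPM and to 61.1, 72.6 and 68.4 CPM, and HCME-sEV library 4 lay just below LME-sEV library 2. The log2 ratios of the means were -0.73 for the light strand and -0.56 for the heavy strand. The light-strand share of all tRNA counts was 42.5% to 45.6% and 37.5% to 44.5%, and overlapped. The difference between the strands was not tested. Both strands are transcribed along most of their length, so counts made without strand would mix a light-strand gene with the precursor of the other strand.

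The tRNA genes mt-Tq, mt-Tt, mt-Tc and mt-Tv were lower with LME-sEVs. mt-Tq, for glutamine, was at 47.1, 53.3, 46.3 and 33.9 CPM with HCME-sEVs and at 29.2, 31.1 and 22.8 CPM with LME-sEVs, with a log2 fold change of -0.71, an SE of 0.145 and an FDR of 0.00452. mt-Tt, for threonine, was at 41.8, 43.9, 39.6 and 34.6 CPM and at 28.2, 24.2 and 25.5 CPM, with a log2 fold change of -0.63, an SE of 0.120 and an FDR of 0.00281. In both genes all LME-sEV libraries were below all HCME-sEV libraries.

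mt-Tc, for cysteine, was at 9.37, 11.1, 7.18 and 5.80 CPM with HCME-sEVs and at 2.68, 4.26 and 1.74 CPM with LME-sEVs, without overlap, and its log2 fold change was -1.54 with an SE of 0.319 and an FDR of 0.00483. It rests on 9 to 44 counts per library. mt-Tv, for valine, was at 9.37, 14.9, 13.6 and 6.27 CPM and at 3.49, 7.17 and 5.03 CPM, with a log2 fold change of -1.04, an SE of 0.288 and an FDR of 0.0271. HCME-sEV library 4 lay below LME-sEV library 2, and the call was lost without HCME-sEV library 2 (FDR 0.107), HCME-sEV library 3 (FDR 0.0523), LME-sEV library 1 (FDR 0.111) or LME-sEV library 3 (FDR 0.114).

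**Figure D4:**
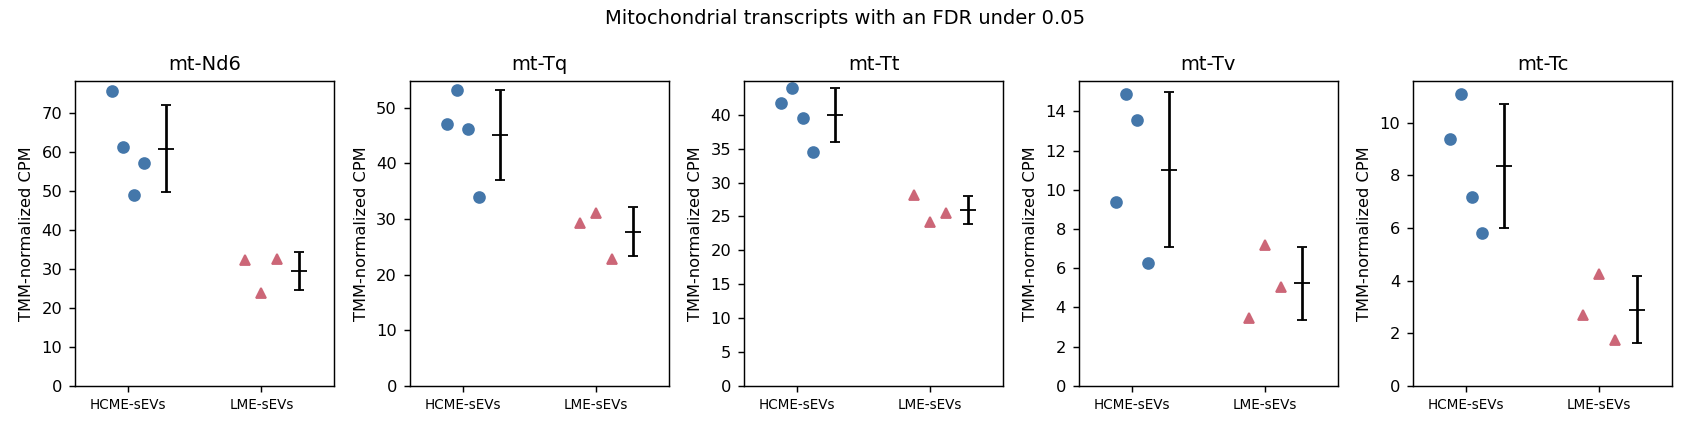
TMM-normalized CPM of the 5 mitochondrial transcripts with an FDR under 0.05, with circles for the 4 HCME-sEV libraries, triangles for the 3 LME-sEV libraries, and the mean ± SD beside them, on axes that start at 0. The groups do not overlap for mt-Nd6, mt-Tq, mt-Tt and mt-Tc, and overlap for mt-Tv.

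The other 8 tested tRNAs did not pass. mt-Tp, for proline, was at 25, 22, 18.1 and 14.6 CPM with HCME-sEVs and at 14.7, 12.8 and 13.1 CPM with LME-sEVs, with a log2 fold change of -0.56 and an FDR of 0.0510. mt-Tm, for methionine, was at 23.5, 26.3, 27.4 and 15.8 CPM and at 13.1, 19.7 and 17.0 CPM, with a log2 fold change of -0.46 (FDR 0.117). mt-Ti, for isoleucine, was at 6.03 to 12.3 CPM and 5.90 to 9.63 CPM, with a log2 fold change of -0.28 (FDR 0.524). In HCME-sEV library 4 the level of each of these 3 genes was the lowest of its group.

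mt-Tl1 and mt-Tl2, both for leucine, had log2 fold changes of -0.72 (FDR 0.184) and -0.95 (FDR 0.179), with 10 to 24 and 6 to 14 counts per library, and mt-Tl2 did not overlap between the groups. mt-Ta (alanine) had a log2 fold change of -0.53 (FDR 0.459) and mt-Tf (phenylalanine) of -0.86 (FDR 0.439). mt-Tw, for tryptophan, was the 1 tested tRNA above 0, with a log2 fold change of 0.29, an SE of 0.330 and an FDR of 0.656. Of the 10 tRNAs not tested, 6 were at 0, and mt-Te, mt-Ts2, mt-Tr and mt-Ty held at most 6, 9, 2 and 2 counts in a library.

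The called tRNAs were also set against an abundant transcript of the same library, as a description with no test. For mt-Tt and mt-Tv it is the adjacent gene of the same strand. For mt-Tq and mt-Tc it is a gene of the opposite strand, with other tRNA genes in between. Per 1000 counts of mt-Cytb, next to it on the genome, mt-Tt had 6.08, 7.35, 7.72 and 6.31 counts with HCME-sEVs and 5.54, 4.36 and 4.85 with LME-sEVs. Per 1000 counts of mt-Nd1, mt-Tq had 4.51, 5.81, 5.58 and 4.2 counts and 3.7, 3.76 and 2.84. In neither ratio did the groups overlap. mt-Tc per 1000 counts of mt-Nd2 did not overlap either, at 0.879 to 1.53 and 0.272 to 0.633, whereas mt-Tv per 1000 counts of mt-Rnr1 did, at 0.652 to 1.36 and 0.347 to 0.831.

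Other values were set beside those of the tRNAs. Nuclear genes of small RNAs (snRNA, snoRNA, miRNA and other short classes) were lower with LME-sEVs in 46 of 142 tested (32.4%) and higher in 1. Over all tested genes, 5.21% were lower and 3.75% higher. The median log2 fold change of these small RNA genes was -0.78. Of the 4 RNAs listed as retained in the nucleus, Malat1 and Neat1 were higher, with log2 fold changes of 0.41 (FDR 0.00688) and 0.54 (FDR 0.00308), and the summed level was 817 to 894 CPM with HCME-sEVs and 924 to 1233 CPM with LME-sEVs. The longest run of A was 2 to 3 bases in the 5 called transcripts, 5 to 8 in the 8 transcripts with at least 1000 CPM and 2 to 5 in the 8 tested tRNAs not called. Across the 22 tested genes, the log2 fold change and the longest run of A had a Spearman rho of 0.645. This rho describes genes that share the libraries and differ in depth, length and class, as the transcripts with the longest runs were mostly the long mRNAs and rRNAs. Among the tRNAs not called, mt-Tl2 with a run of 5 was at -0.95 and mt-Tw with a run of 4 at 0.29. The part of these values in the result was not tested.

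Nuclear genes that replicate, transcribe, process and translate the mitochondrial genome were compared in the same fit, since their products act on these transcripts. Of 117 listed genes 116 were in the table and 115 were tested, of which 6 were lower and 1 higher, next to the 5.21% and 3.75% of all tested genes. The median log2 fold change was -0.12, with 78 of 115 below 0, against 48.53% of all tested genes. Replication (17 tested) and transcription (8 tested) had medians of -0.03 and -0.02, and the 22 translation factors had a median of -0.05 with no call. RNA processing had a median of -0.25 and polyadenylation, stability and decay one of -0.26, where all 8 tested genes were below 0 and 1 passed.

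Rexo2, an exonuclease that degrades very short RNAs in mitochondria, was at 412, 364, 323 and 346 CPM with HCME-sEVs and at 262, 276 and 259 CPM with LME-sEVs, with a log2 fold change of -0.44 (FDR 0.00240). Mrm3, a methyltransferase of the 16S rRNA, was at 19.2, 23.2, 15.9 and 22.7 CPM and at 12.3, 11.4 and 9.86 CPM, with a log2 fold change of -0.87 (FDR 0.00302). Neither gene overlapped between the groups. Fastkd3 and Tbrg4 (FASTKD4), of a family that acts on mitochondrial mRNAs, had log2 fold changes of -0.43 (FDR 0.0392) and -0.39 (FDR 0.0221). Yrdc, for a tRNA modification, had one of -0.31 (FDR 0.0277), and Yars2, the mitochondrial tyrosyl-tRNA synthetase, one of -0.41 (FDR 0.0249). Tk2, the mitochondrial thymidine kinase, was higher, with a log2 fold change of 0.64 (FDR 0.0469).

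Of the genes with the highest mean count in each role, 2 (Rexo2 and Yrdc) were among the lower genes above. Tfam, which packages mitochondrial DNA and starts its transcription, was at 164, 159, 159 and 144 CPM with HCME-sEVs and at 144, 125 and 131 CPM with LME-sEVs, without overlap, and did not pass (log2 fold change -0.23, FDR 0.0855). Gars, the glycyl-tRNA synthetase of both cytosol and mitochondria, had a log2 fold change of -0.11 (FDR 0.424). Ssbp1, which binds single-stranded mitochondrial DNA, Grsf1, of the RNA granules, and Mrpl58, a ribosomal release factor, had log2 fold changes of 0.06 (FDR 0.755), 0.13 (FDR 0.431) and 0.09 (FDR 0.634).

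**Figure D5:**
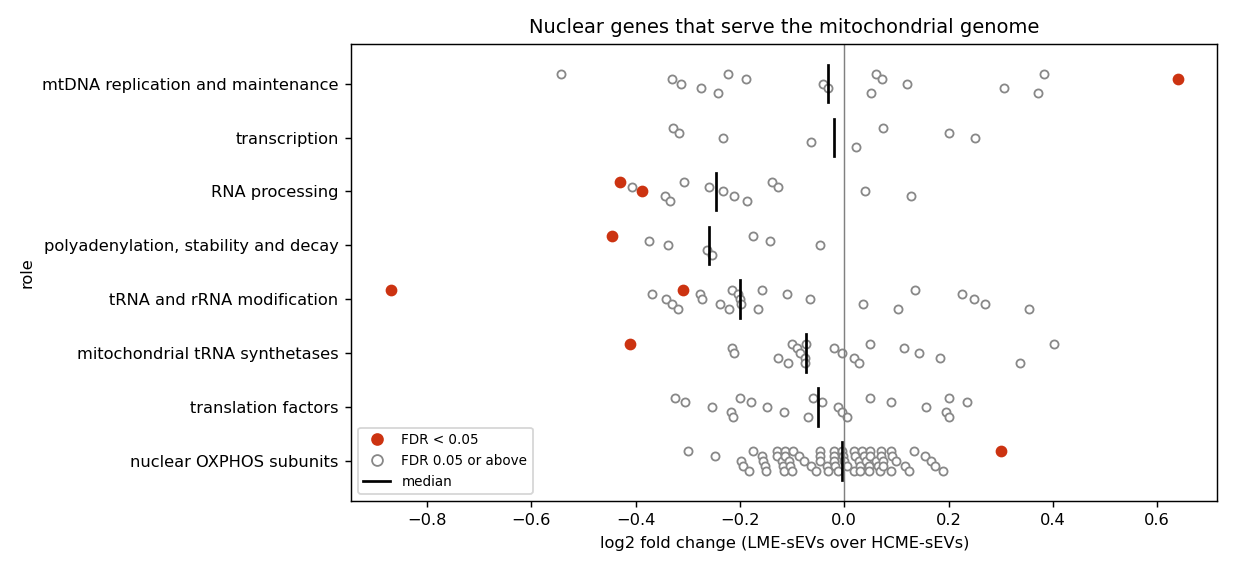
Log2 fold change, LME-sEVs over HCME-sEVs, of the tested nuclear genes that serve the mitochondrial genome, by role, and of nuclear subunits of oxidative phosphorylation (OXPHOS), with red points for an FDR under 0.05 and a bar for the median. The medians of RNA processing and of polyadenylation, stability and decay lie at -0.25 and -0.26, and that of OXPHOS subunits at -0.005.

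Nuclear subunits of the same respiratory complexes stood near 0. Of 72 genes 71 were tested, with none lower, 1 higher and a median log2 fold change of -0.005. The medians were 0.01 for complex I, -0.10 for complex III, 0.02 for complex IV and -0.02 for ATP synthase. Their summed level was 16695 to 19382 CPM with HCME-sEVs and 17054 to 18056 CPM with LME-sEVs, which overlapped.

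Some markers of other cells moved with the groups. Summed levels of 6 B-cell markers were 4.52 to 8.08 CPM with HCME-sEVs and 5.63 to 7.17 CPM with LME-sEVs, and those of CD4+ T cells and NK cells were at most 1.92 CPM. Markers of basophils and mast cells were 5.28 to 33.8 CPM and 27.6 to 44.4 CPM. Of these, 3 of 5 tested genes were higher, next to 3.75% of all tested genes. Cpa3 (log2 fold change -0.26, FDR 0.721) and Fcer1a (0.37, FDR 0.706) did not pass. Markers of myeloid cells were 2.27 to 4.56 CPM and 6.38 to 7.84 CPM. Those of erythroid cells and platelets were 65.3 to 167 CPM and 141 to 188 CPM. Of the latter, 3 of 5 were higher, but not Hbb-bs (log2 fold change -0.01) or Hba-a2 (0.45). The largest part of the markers of erythroid cells and platelets was Pf4, a platelet chemokine chosen to be named after its values were seen. Pf4 was at 30.3, 59.4, 107.7 and 45.9 CPM with HCME-sEVs and at 107.5, 117 and 92.4 CPM with LME-sEVs (log2 fold change 0.81, FDR 0.0331). The mean level of Pf4 was 60.8 and 105.8 CPM, below that of Cd3e at 109.3 and 139.5 CPM. The part of these other cells in the mitochondrial results was not tested.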

How the data were processed

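RNA of CD8+ T cells was, for 7 libraries, sequenced with the QuantSeq 3′ kit with UMIs. Per the methods and the labels, the authors trimmed reads (cutadapt 2.10), mapped them to GRCm38 (STAR 2.5.3a), collapsed fragments (UMI-tools 1.0.0) and counted genes with featureCounts (Subread 2.0.0). The deposited values are whole-number counts per gene symbol, neither normalized nor filtered. Annotation release, strand setting and treatment of multi-mapped reads are not given in the sources used here. Counts depend on capture by A-rich 3′ ends, which bears on rRNAs and tRNAs.

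Counts were normalized by TMM and tested with glmQLFit and glmQLFTest of edgeR 4.0.16 (R 4.3.3), LME-sEVs against HCME-sEVs without covariates, for genes averaging 5 or more counts per library, and p-values were adjusted by Benjamini-Hochberg over all tested genes. Groups came from the sample titles. Totals of 3689831 to 5030522 counts gave floors of 0.58 to 0.804 CPM (TMM-scaled, as are summed levels). Class shares are of total counts. Positions, sequences and nuclear copies came from GENCODE vM21 transcripts, searched with blast 2.17.0 (identity of at least 90%) and by shared runs of 50 bases, so unannotated nuclear sequence was not searched. On simulated data for the 12623 genes, with 200 changed by a log2 fold change of 1.5, the test recovered 91% and made 7 false calls.

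The 13 mRNAs, 2 rRNAs and tested tRNAs were named, and of machinery genes those with an FDR under 0.05 and the highest mean count per role. Members and lists were chosen with earlier results of these data known. Of the listed machinery genes, Mars2 was not matched. Alternatives used DESeq2 1.42.0, limma 3.58.1, other scalings and filters, a replicate block, and each library left out. Plots used matplotlib 3.10.9.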

Additional observations from a re-analysis of the deposited data

How the results depend on the processing

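Of the log2 fold changes of single mitochondrial genes under all alternatives, 305 kept their direction and their side of the threshold, 12 passed it newly, 5 lost it (all mt-Tv) and 4 reversed (all mt-Nd3, the gene with 3 to 20 counts per library). The new passes were of mt-Tp (4 alternatives), mt-Nd5 (3), mt-Tm (2), mt-Rnr2 (2) and mt-Rnr1 (1). Each of these genes passed with the replicate block, with FDRs of 0.00565, 0.00679, 0.00468, 0.0292 and 0.0498. mt-Nd6, mt-Tc, mt-Tq and mt-Tt kept an FDR under 0.05 in 15 of 15 alternatives, and mt-Tv in 10 of 15, with FDRs from 3.26e-04 to 0.114. The log2 fold change of mt-Nd3 was -0.0901 with the replicate block and -0.344 to 0.39 without single libraries. The number of mitochondrial genes called was 5, and 10 with the replicate number as a block on the 6 libraries whose numbers both groups share. It ranged from 4 to 8 without single libraries, with 8 without HCME-sEV library 4, the same 6 libraries without the block. Under the DEG rule (FDR under 0.05 and a log2 fold change beyond 1) 3 passed, and 1 with library size as the only scaling. Deviations of libraries with the same number had r = 0.07, 0.15 and 0.03, not all above the 0.1 asked for. Those with different numbers had r from -0.206 to 0.08. The numbers were not read as pairs, but whether they stand for pairs is not settled. With the block 1440 genes were called over all genes, against 918 on the same 6 libraries without it. Over all genes 1131 were called, and 391 to 1305 without single libraries, with 391 without LME-sEV library 2, 458 without LME-sEV library 3 and 723 without HCME-sEV library 2. Machinery genes called were 7, with 10 under the replicate block and 9 without a filter. Without single libraries they were between 2 and 7. There were 2 without LME-sEV library 2, 3 without LME-sEV library 1 or 3, and 4 without HCME-sEV library 1 or 2. The shares of the classes kept their direction under every alternative run. However, the log2 ratio of the mRNA share went from -0.109 to -0.037 without HCME-sEV library 1. The cause of these changes was not tested. Depth limits what can be said of tRNAs with few counts per library.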
